A study of Homo sapiens with 3 samples.

Results

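The genes described here are HDAC6 and 9 partners through which it handles misfolded protein and the actin cytoskeleton, namely CTTN, SQSTM1, NBR1, OPTN, VCP, PLAA, BAG3, STUB1 and HSF1. They were named by symbol from the known pathway, with earlier results of these data at hand, and all 10 were found among the 58381 genes of the count table. RNA was sequenced from T24 cells, a human urothelial bladder carcinoma line, in 3 conditions with 1 library each. Ctrl is the untreated control, RT is the control exposed to 10 Gy of gamma radiation from a caesium source, the dose that the labels give, and RT + shHDAC6 is labelled as irradiated likewise with HDAC6 knocked down by a lentiviral shRNA. Per the labels the cells were infected with either the shRNA vector or the empty pLKO.1 vector and selected with puromycin, whereas the study's text also calls the comparator parental cells. A single shRNA sequence was used, no library of unirradiated shHDAC6 cells was analysed here, and the time between irradiation and harvest is not given in the sources used here.

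HDAC6 is a mostly cytoplasmic deacetylase that acts on tubulin, cortactin and HSP90. Its zinc finger binds ubiquitin, and it links ubiquitinated protein to dynein, which carries the cargo along microtubules to the aggresome near the centrosome. Aggresomes and smaller ubiquitin-rich bodies are cleared by selective autophagy, in which receptors such as p62 (SQSTM1), NBR1 and optineurin (OPTN) bind both ubiquitin and the ATG8 proteins of the autophagosome membrane. The ATPase p97 (VCP) pulls ubiquitinated proteins out of complexes, while chaperones, the ligase CHIP (STUB1) and the co-chaperone BAG3 select the clients, and HSF1 drives transcription of the chaperones.

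Total counts lay between 35424086 and 41811165 per library, and each of the 10 genes had at least 2170 counts in every library. Levels are counts scaled to a common library size of 1000000 reads (CPM) by trimmed mean of M-values (TMM). Log2 ratios were taken between these levels, and the 95% Clopper-Pearson interval beside each covers counting error only, since reads that carry no molecular identifier cannot be counted as separate molecules and there was no replicate. No p-value is therefore given, and the spread between cultures of 1 condition is not known. A gene is said to have risen or fallen only where its scaled level changed at least 1.5-fold, among genes whose larger count in the comparison was 100 or more. Scaling by library totals in place of TMM lowered every log2 ratio of RT against Ctrl by 0.22 and of RT + shHDAC6 against Ctrl by 0.13, and raised every one of RT + shHDAC6 against RT by 0.084. With TMM the median log2 ratio of all genes past the filter was 0.051, 0.039 and -0.019 in these comparisons. RT enters 2 of the 3 comparisons and Ctrl 2 of the 3, so they are not independent of each other.

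Of the 11 urothelial and epithelial markers examined, KRT18 had 7336 to 9048 counts, whereas the uroplakins UPK1A, UPK2 and UPK3A, which mark differentiated urothelium, had 0 to 18. Summed over the 11, the level was 392, 476 and 369 CPM in the 3 libraries, here and below in the order Ctrl, RT, RT + shHDAC6. In RT against Ctrl, KRT18 rose (log2 ratio 0.62) and KRT19 fell (-0.67). Although the sum was higher in RT, 6 of the 8 markers past the filter lay below 0 there, with a median of -0.44. In RT + shHDAC6 against RT, KRT7, GATA3 and PPARG fell, with log2 ratios of -2.75, -1.07 and -0.95, while the other 5 of the 8 markers past the filter lay above 0, up to 0.51, and the median of the 8 was 0.14. Of the 3 mesenchymal markers, CDH2 rose in RT against Ctrl (0.78, and 0.56 with library totals) and fell in RT + shHDAC6 against RT (-1.04). The other 2, VIM and FN1, went the opposite way, below 0 in the first comparison and above 0 in the second, without reaching 1.5-fold. The median of the 3 was -0.22 and 0.071. The part of these markers in the results below was not tested. The 3 markers of other cell types (PTPRC, PECAM1, ALB) summed to 8.29 to 13.6 CPM, with ALB at 2 to 6 counts, and PECAM1 fell in RT against Ctrl (log2 ratio -0.79).

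HDAC6, the target of the shRNA (ENSG00000094631, GRCh38 chromosome X, 48801377 to 48824982, forward strand, with 29 exons in its canonical transcript), was read 3098 times in Ctrl, 2383 times in RT and 2170 times in RT + shHDAC6. After scaling these were 68.3, 71.0 and 62.0 CPM, so that the RT + shHDAC6 library was the lowest, by a small margin. It reached 87.2% of the RT level, which as a log2 ratio is -0.20 (interval -0.28 to -0.11) and falls short of the 1.5-fold limit. The RNA of the target thus differed in the direction of the label, by a small amount. Of the 6995 genes that reached 1000 counts in RT or RT + shHDAC6, 22.9% lay lower than HDAC6 in this comparison. Against Ctrl the log2 ratio was -0.14 (interval -0.22 to -0.061). With TMM, HDAC6 in RT lay within counting error of Ctrl, at a log2 ratio of 0.057 (interval -0.021 to 0.13). The value ranged from -0.16 with library totals, outside that interval, to 0.12 with median-of-ratios scaling. These are sums over all transcripts of the gene, and protein was not measured in these files. In separate assays of shHDAC6 T24 cells, the study reports lower HDAC6 mRNA by qPCR and lower protein by Western blot.

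Among the 7663 other genes that reached 1000 counts in any library, the pattern nearest to that of HDAC6, measured as the distance between the pairs of log2 ratios for RT against Ctrl and RT + shHDAC6 against RT, was that of ISOC1 (2557, 1966 and 1790 counts in the 3 libraries; distance 0.000668). WBP1L, PSKH1, PPID (cyclophilin 40, a co-chaperone of HSP90) and ERCC4 (the XPF endonuclease of nucleotide excision repair) followed at distances of 0.00812 to 0.0114. The counting intervals of HDAC6 itself, -0.021 to 0.13 and -0.28 to -0.11, were wider than these distances. Which genes stood nearest is therefore within counting error. In all, 216 genes, or 2.82%, lay within 0.1 of HDAC6.

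The RefSeq promoter table (GRCh38.p14, windows around each transcription start) held 13 windows for 7 of the members, HDAC6, SQSTM1, NBR1, OPTN, VCP, PLAA and BAG3, and none was matched for CTTN, STUB1 and HSF1. They were searched on both strands for motifs of the stress factors tied to this pathway. These were the antioxidant response element TGACNNNGC of NRF2, of which SQSTM1 is a known target, the heat shock elements GAANNTTC and TTCNNGAA of HSF1, of which BAG3 is a known target, and the E-box CACGTG bound by TFEB. The first was found in windows of HDAC6, VCP and PLAA and the others in 0 windows. Both HDAC6 matches lay in the same window, of 3 for that gene, and VCP and PLAA had 1 window each. The matches are shown because they are the letters on which this description rests, on the gene's own strand, with the match in capitals (for HDAC6 and PLAA it reads on the opposite strand).
HDAC6, chrX:48801294-48801318, forward strand: cacatttaGCATCGTCAccacgcct
HDAC6, chrX:48801380-48801404, forward strand: ccgcccgcGCTACGTCAtcacggcg
VCP, chr9:35072798-35072822, reverse strand: cggccaatTGACGTGGCgttactag
PLAA, chr9:26947220-26947244, reverse strand: tcaggcttGCTGTGTCActcggccc
The antioxidant response element occurs in 13.3% of all 35116 windows, the heat shock elements in 6.77% and 7.74% and the E-box in 7.26%. Windows of SQSTM1, NBR1, OPTN and BAG3 held no match of these letters, which says nothing about the factors or about other parts of these genes.

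**Figure D1:**
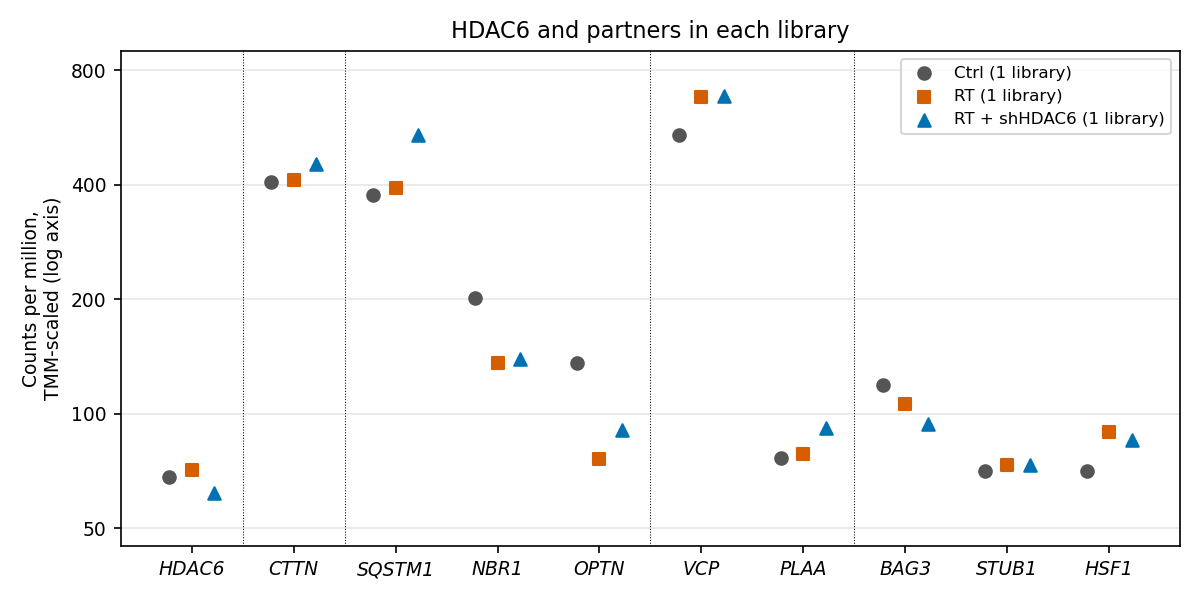
Level of each of the 10 genes in each library, as CPM after TMM scaling on a log axis, with 1 point per library (circle Ctrl, square RT, triangle RT + shHDAC6) and dotted lines between functional groups. OPTN and NBR1 are highest in Ctrl, SQSTM1 is highest in RT + shHDAC6, and HDAC6 moves little (68.3, 71.0 and 62.0).

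Cortactin (CTTN, ENSG00000085733, chromosome 11, 70398404 to 70436584) is an HDAC6 substrate that binds actin filaments and the Arp2/3 complex. With TMM it was close to level after irradiation. Its counts were 18449, 13798 and 15855, or 407, 411 and 453 CPM. RT + shHDAC6 was thus slightly the highest of the 3. The log2 ratio was 0.016 (interval -0.016 to 0.048) for RT against Ctrl, or -0.20 with library totals. For RT + shHDAC6 against RT it was 0.14 (interval 0.11 to 0.17). Neither comparison reached 1.5-fold. Since the scaling cancels in a ratio of 2 genes of the same library, the change of CTTN relative to HDAC6 between RT and RT + shHDAC6, 0.34 on the log2 scale (interval 0.25 to 0.43), does not depend on it.

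Cortactin builds branched actin with the Arp2/3 complex and its activators. Of 14 of these genes that passed the filter, 11 were below 0 in RT against Ctrl, where 45.8% of all genes were, with a median log2 ratio of -0.47 against 0.051 over all genes. The median was -0.69 with library totals, against -0.17. At 1.5-fold, 2 fell and 1 rose, where 10.1% of all genes fell and 15.7% rose. WASF2, which activates the complex at the leading edge, fell from 8775 counts in Ctrl to 4241 in RT (log2 ratio -0.61) and WIPF2 from 3469 to 1710 (log2 ratio -0.59). The 1 that rose, the subunit ARPC1B, had only 99, 127 and 94 counts (log2 ratio 0.79, or 0.58 and short of the limit with library totals) and passed the filter only through the library where it was high. WIPF1, 1 of the 11 below 0 (log2 ratio -0.41), likewise passed only through Ctrl, with 104, 58 and 67 counts. Of 13 genes of this list past the filter in RT + shHDAC6 against RT, 0 changed 1.5-fold, where 3.0% of all genes rose and 5.29% fell. The median of the 13 was 0.092.

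The autophagy receptors held the only member that passed 1.5-fold. OPTN (optineurin, ENSG00000123240, chromosome 10, 13099449 to 13138308) is a receptor for ubiquitinated cargo and damaged mitochondria. Its counts were 6148, 2550 and 3170, or 136, 76.0 and 90.5 CPM. Both irradiated libraries were below Ctrl, and RT was the lowest. OPTN fell in RT to 56.1% of Ctrl (log2 ratio -0.83, interval -0.90 to -0.77). Only 1.41% of the 7588 genes that reached 1000 counts in either library lay lower. Under the 5 scalings run the value stayed between -1.05 and -0.78. In RT + shHDAC6 it was 1.19-fold higher than in RT (log2 ratio 0.25, interval 0.18 to 0.33). Against Ctrl it was lower there (log2 ratio -0.58, interval -0.64 to -0.52), only just short of the limit.

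NBR1 (ENSG00000188554, chromosome 17, 43170481 to 43211689), a receptor that binds ubiquitin and works together with p62, had 9137, 4557 and 4865 counts, or 201, 136 and 139 CPM. It was also lower in both irradiated libraries, which hardly differed from each other. Its log2 ratio for RT against Ctrl was -0.57 (interval -0.62 to -0.52), at 67.4% of the Ctrl level and thus just short of the limit, and 5.65% of the same 7588 genes lay lower. It passed the limit with library totals (-0.79). For RT + shHDAC6 against RT the log2 ratio was 0.032 (interval -0.026 to 0.091).

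SQSTM1 (p62, ENSG00000161011, chromosome 5, 179806398 to 179838078), the receptor best known for bridging ubiquitinated aggregates to LC3 and for binding KEAP1, did not follow them. It had 17080, 13144 and 18980 counts, or 377, 392 and 542 CPM. Ctrl and RT lay close together and RT + shHDAC6 stood above both. The log2 ratio was 0.057 (interval 0.024 to 0.090) for RT against Ctrl, or -0.16 with library totals. It was 0.47 (interval 0.44 to 0.50) for RT + shHDAC6 against RT. The latter, a 1.38-fold difference, did not reach the limit under any of the 5 scalings run, where it lay between 0.46 and 0.55, but only 2.3% of the 6995 genes that reached 1000 counts lay higher. Exons of MRNIP and MGAT4B on the other strand overlap 22.4% of its exon length, and these genes had log2 ratios of -0.24 and -0.12 in the same comparison.

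Between the receptors the differences were independent of scaling. From Ctrl to RT, SQSTM1 gained 0.63 (interval 0.56 to 0.69) on the log2 scale over NBR1 and 0.89 (interval 0.82 to 0.97) over OPTN. From RT to RT + shHDAC6 it gained a further 0.44 (interval 0.37 to 0.50) over NBR1 and 0.22 (interval 0.13 to 0.30) over OPTN. Per exon length, SQSTM1 made up 49.8%, 62.7% and 67.8% of the summed level of the 3 receptors in Ctrl, RT and RT + shHDAC6. With the length of the longest transcript these shares were 61.8%, 73.1% and 77.4%, so the level of the share depended on the length used while the order of the libraries did not.

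**Figure D2:**
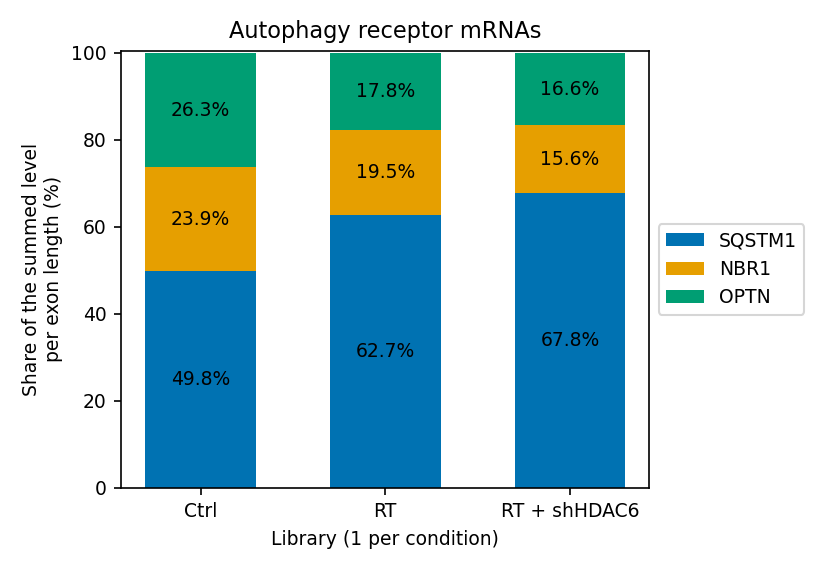
Share of SQSTM1, NBR1 and OPTN in their summed level per exon length (TPM) in the 3 libraries, as stacked bars from 0 to 100%. The SQSTM1 share grows from 49.8% in Ctrl to 67.8% in RT + shHDAC6, and the shares of both other receptors shrink.

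Of 12 other autophagy receptors, their partners and ATG8 proteins, 9 were below 0 in RT against Ctrl (45.8% of all genes). GABARAP, 1 of the 9 (log2 ratio -0.0073), passed the filter only through Ctrl, with 106 counts. The median was -0.40, against 0.051 over all genes, and -0.62 with library totals, against -0.17. At 1.5-fold, 2 fell and 1 rose, where 10.1% of all genes fell and 15.7% rose. GABARAPL1, an ATG8 protein, had 1801, 687 and 490 counts and fell in RT, with a log2 ratio of -0.96 (interval -1.08 to -0.83). MAP1LC3B2 fell as well (log2 ratio -0.88, 292, 117 and 123 counts), but it is nearly identical to MAP1LC3B, and reads could have been split between them. KEAP1, the adaptor that targets NRF2 for degradation and is itself bound by p62, rose from 1991 to 2472 counts (log2 ratio 0.75), a change that was 0.53 and short of the limit with library totals. Of the 11 genes past the filter in RT + shHDAC6 against RT, 0 changed 1.5-fold, where 3.0% of all genes rose and 5.29% fell. GABARAPL1 lay lowest at -0.55.

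VCP (ENSG00000165280, chromosome 9, 35053928 to 35072668, reverse strand) encodes the p97 segregase and was the member with the most counts. Its counts were 24553, 22800 and 23997, or 541, 680 and 685 CPM. The irradiated libraries were alike and both above Ctrl. The log2 ratio was 0.33 (interval 0.30 to 0.35) for RT against Ctrl, 0.11 with library totals, and 0.012 (interval -0.014 to 0.038) for RT + shHDAC6 against RT. A second gene of the annotation on the same strand shares 4.7% of its exon length.

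PLAA (ENSG00000137055, chromosome 9, 26903372 to 26947242, reverse strand), a ubiquitin-binding cofactor of p97, had 3461, 2626 and 3207 counts, or 76.3, 78.3 and 91.6 CPM. Ctrl and RT did not differ beyond counting error with TMM (log2 ratio 0.037, interval -0.037 to 0.11), but the value was -0.18 with library totals, and RT + shHDAC6 was above both, with a log2 ratio of 0.23 (interval 0.15 to 0.30) against RT. IFT74, whose exons overlap 2.0% of its length on the other strand, had 0.48 in that comparison.

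Of 18 other p97 cofactors, 3 rose and 1 fell in RT against Ctrl, around a median of -0.025, which is near the share over all genes (15.7% and 10.1%). FAF2, which recruits p97 to the endoplasmic reticulum and lipid droplets, rose by a log2 ratio of 0.71 (8925 to 10835 counts), DERL1, a channel component of ER-associated degradation, by 0.74 (4852 to 5976 counts), and ASPSCR1, a UBX protein, by 0.67. UBXN7, which links p97 to cullin ligases, fell from 7080 to 3451 counts (log2 ratio -0.60). With library totals the 3 rises came to 0.50, 0.52 and 0.45 and no longer reached 1.5-fold. Under that scaling 0 of the 18 rose and 3 fell, where 8.18% of all genes rose and 19.8% fell. In RT + shHDAC6 against RT, 0 of the 18 changed 1.5-fold, where 3.0% of all genes rose and 5.29% fell.

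BAG3 (ENSG00000151929, chromosome 10, 119651380 to 119677819), the HSP70 co-chaperone that directs clients to autophagy, was lower in each step, as HDAC6 also was with library totals (-0.16 and -0.11) but not with TMM. It had 5411, 3548 and 3282 counts, or 119, 106 and 93.7 CPM, with Ctrl highest and RT + shHDAC6 lowest. The log2 ratio was -0.17 (interval -0.24 to -0.11) for RT against Ctrl and again -0.17 (interval -0.24 to -0.11) for RT + shHDAC6 against RT, and -0.35 (interval -0.41 to -0.29) for RT + shHDAC6 against Ctrl.

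STUB1 (CHIP, the ubiquitin ligase of HSP70 and HSP90 clients; ENSG00000103266, chromosome 16, 680224 to 682870) had 3211, 2455 and 2567 counts, or 70.8, 73.2 and 73.3 CPM. With TMM the 3 libraries did not differ beyond counting error. The log2 ratios were 0.048 (interval -0.029 to 0.12, and -0.17 with library totals) for RT against Ctrl and 0.0023 (interval -0.078 to 0.083) for RT + shHDAC6 against RT. JMJD8 overlaps 42.5% of its exon length on the other strand and had log2 ratios of 0.80 and -0.42. Both library kits named in the sources keep strand, but the strand setting of the counting is not given in the sources used here.

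HSF1 (ENSG00000185122, chromosome 8, 144291591 to 144314720), the transcription factor of the heat shock response and itself regulated through HDAC6 complexes, had 3206, 3001 and 2989 counts, or 70.7, 89.5 and 85.4 CPM. Both irradiated libraries were above Ctrl after scaling, and for RT the log2 ratio was 0.34 (interval 0.27 to 0.41), or 0.12 with library totals. RT + shHDAC6 against RT gave -0.068 (interval -0.14 to 0.0057), within counting error. DGAT1, which overlaps part of the 2.6% of HSF1 exon length shared with the other strand, had log2 ratios of 0.99 and -0.38.

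Of 18 further chaperones and BAG proteins, 2 rose and 1 fell in RT against Ctrl, with a median of 0.053, no more than the share over all genes (15.7% and 10.1%). The stress-inducible HSP70 genes HSPA1A and HSPA1B rose by log2 ratios of 0.61 and 0.95 (0.39, short of the limit, and 0.74 with library totals), and as near-identical copies they may have shared reads. HSPB8, the small heat shock protein that works with BAG3, had 133, 61 and 139 counts. Its log2 ratio was -0.69 (interval -1.15 to -0.24) for RT against Ctrl and 1.13 (interval 0.68 to 1.58) for RT + shHDAC6 against RT, and both rest on the 61 counts in RT, since it passed the filter only through the libraries where it was high. In RT + shHDAC6 against RT it was the 1 gene of the 18 past the limit with TMM, and with library totals there were 2, BAG1 (0.58 with TMM) being the other. Over all genes, 3.0% rose and 5.29% fell there with TMM, and 4.19% and 4.28% with library totals. The list's median in that comparison was -0.097, against -0.019 over all genes.

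Among the remaining lists, 1 of 18 dynein and dynactin genes past the filter, the light chain DYNLT3, fell in RT against Ctrl (1578 to 734 counts, log2 ratio -0.67). None of the 15 ubiquitin genes, ubiquitin shuttles and proteasomal receptors changed 1.5-fold in any of the 3 comparisons. Their log2 ratios lay between -0.28 and 0.39 in RT against Ctrl and between -0.24 and 0.24 in RT + shHDAC6 against RT. Over all genes, 10.1% fell 1.5-fold and 15.7% rose in RT against Ctrl. The shares were 5.29% and 3.0% in RT + shHDAC6 against RT, and 11.7% and 13.5% in RT + shHDAC6 against Ctrl.

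**Figure D3:**
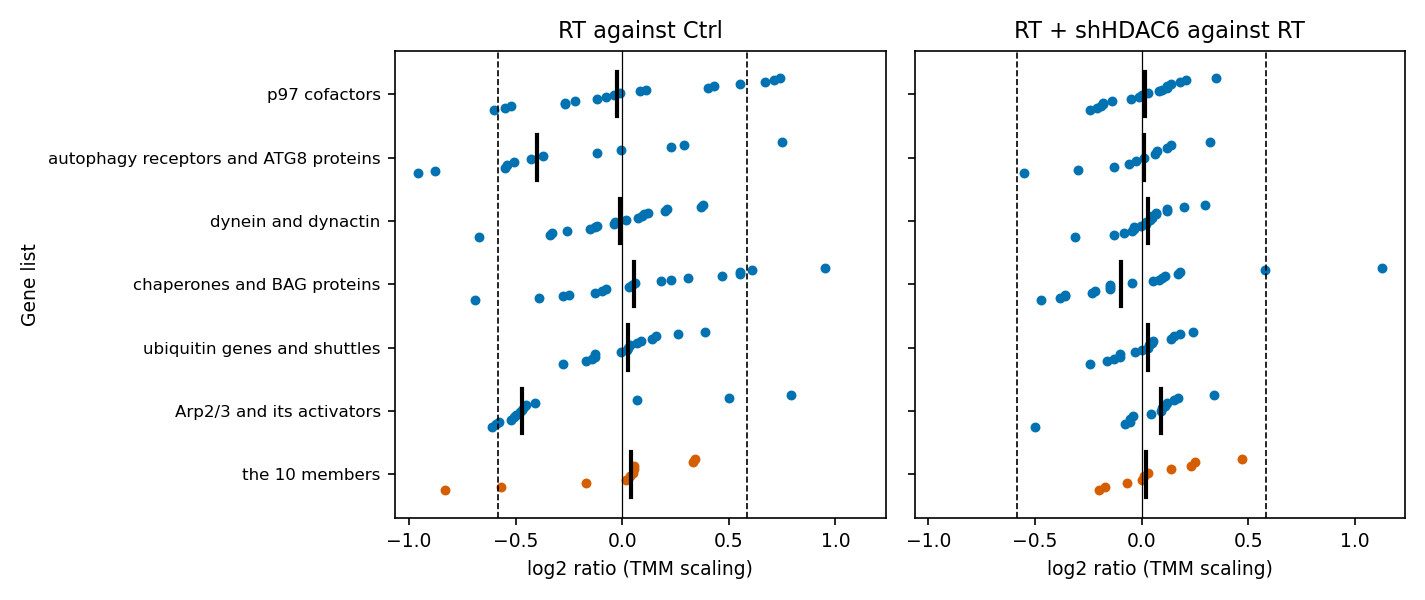
Log2 ratio (TMM scaling) of every gene past the filter in 6 related gene lists (blue) and of the 10 members (orange), for RT against Ctrl on the left and RT + shHDAC6 against RT on the right, with black bars at the medians and dashed lines at 1.5-fold. The Arp2/3 list (median -0.47) and the autophagy list (median -0.40) lie left of 0 in RT against Ctrl, while the medians in RT + shHDAC6 against RT lie between -0.097 and 0.092.

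Set beside all genes past the filter, 1 of the 10 members fell and 0 rose in RT against Ctrl, where 10.1% of 12670 genes fell and 15.7% rose. The members' median log2 ratio was 0.042 against 0.051 over all genes. In RT + shHDAC6 against RT, 0 members changed 1.5-fold in either direction, where 3.0% of 12066 genes rose and 5.29% fell, and the medians were 0.022 and -0.019. In RT + shHDAC6 against Ctrl, 0 members changed 1.5-fold, against 13.5% of 12712 genes higher and 11.7% lower. The medians were 0.10 and 0.039. OPTN, at 66.8% of Ctrl, was only just short of the limit there. With TMM and 1.5-fold, the share of members past the limit was thus no greater than that of all genes in any of the 3 comparisons. This did not hold for every scaling. With library totals, 2 of the 10 were lower in RT against Ctrl, where 19.8% of all genes were. Likewise 2 were lower in RT + shHDAC6 against Ctrl, where 16.4% of all genes were.

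With a lower limit, a level at least 25% above that of the other library (or the inverse), 2 members were higher in RT than in Ctrl (VCP and HSF1, background 29.3%) and 2 lower (NBR1 and OPTN, background 22.5%). SQSTM1 was the 1 member higher in RT + shHDAC6 than in RT (background 9.39%) and 0 were lower (background 14.3%). Against Ctrl, RT + shHDAC6 had 2 members higher (SQSTM1 and VCP, background 28.3%) and 3 lower (NBR1, OPTN and BAG3, background 23.3%). By the same limit 11 of the 14 Arp2/3 genes and 7 of the 12 autophagy genes were lower in RT than in Ctrl. The 11 include WIPF1, which passed the filter only through Ctrl, where it was high.

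With library totals and 1.5-fold, both NBR1 and OPTN were lower in RT than in Ctrl, where 8.18% of all genes past the filter were higher and 19.8% lower. None of the members changed 1.5-fold in RT + shHDAC6 against RT (background 4.19% higher and 4.28% lower), and the same 2 receptors were lower in RT + shHDAC6 than in Ctrl (background 8.80% higher and 16.4% lower).

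**Figure D4:**
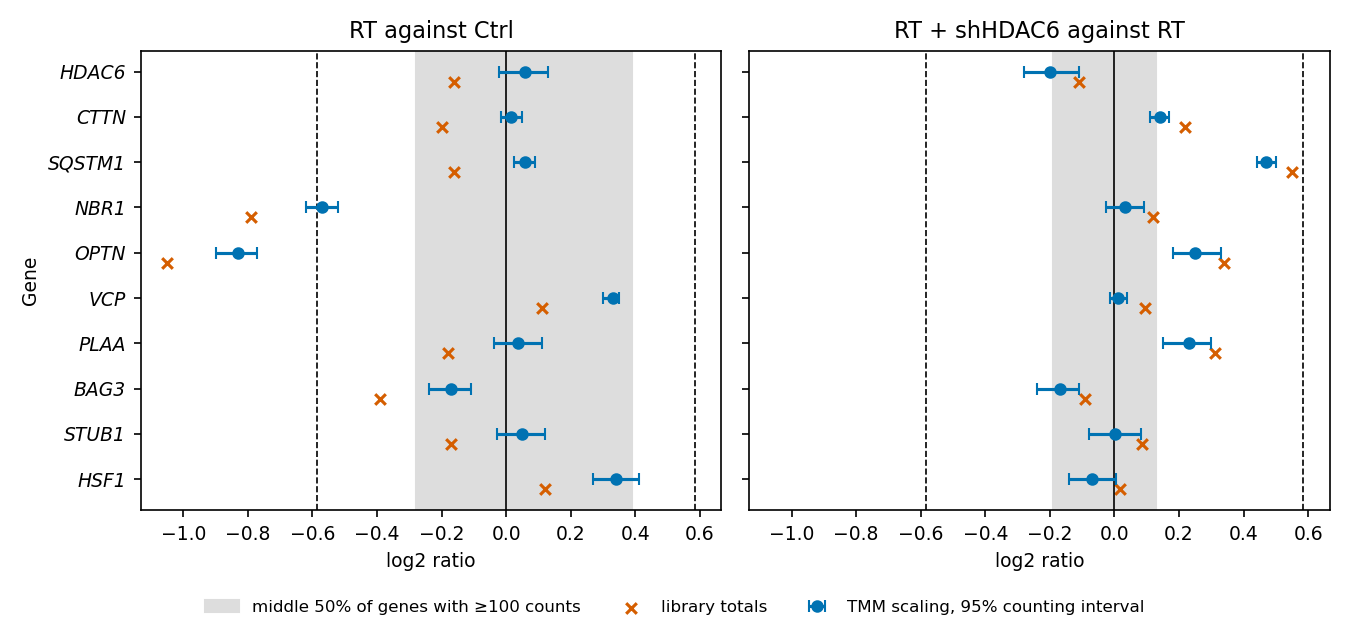
Log2 ratio of each member with its 95% counting interval after TMM scaling (blue points) and with library totals (orange crosses), beside the middle 50% of genes with at least 100 counts (grey) and the 1.5-fold limits (dashed). OPTN (-0.83) lies beyond the limit in RT against Ctrl and NBR1 (-0.57) at its edge, and SQSTM1 (0.47) lies farthest right in RT + shHDAC6 against RT.

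The order of the members does not depend on scaling. In RT against Ctrl it ran from HSF1 and VCP, which did not differ beyond counting error, down by 0.27 (interval 0.23 to 0.31) to SQSTM1, followed by HDAC6, STUB1, PLAA and CTTN, none of which differed from the one before it, and then to BAG3, NBR1 and OPTN. Each of these last 3 was lower than the one before it, by 0.19, 0.39 and 0.27 on the log2 scale, with intervals that excluded 0. VCP exceeded OPTN by 1.16 (interval 1.09 to 1.23), or 2.24-fold. Of all 45 pairs, 34 had an interval that excluded 0.

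In RT + shHDAC6 against RT the order was SQSTM1, OPTN, PLAA, CTTN, NBR1, VCP, STUB1, HSF1, BAG3 and HDAC6. HDAC6, the gene that the shRNA targets, stood last but could not be told from BAG3 at this depth (difference 0.023, interval -0.086 to 0.13). SQSTM1 exceeded OPTN by 0.22 (interval 0.13 to 0.30) and HDAC6 by 0.67 (interval 0.58 to 0.75), or 1.59-fold. Here 39 of the 45 pairs had an interval that excluded 0, and these intervals, too, cover counting error only.

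**Figure D5:**
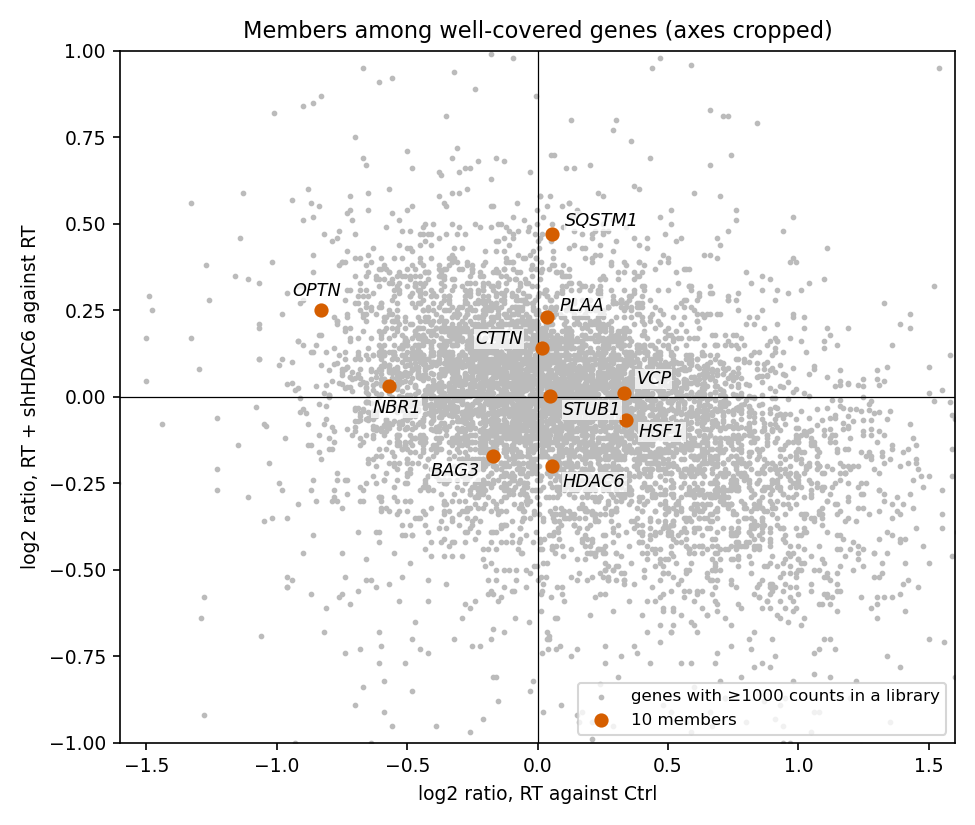
Each gene that reached 1000 counts in a library (grey) and the 10 members (orange), by log2 ratio of RT against Ctrl (horizontal) and of RT + shHDAC6 against RT (vertical), both TMM-scaled and sharing the RT library, with the axes cropped. OPTN (-0.83 and 0.25) and NBR1 (-0.57 and 0.032) lie to the left and SQSTM1 (0.057 and 0.47) at the top, while HDAC6 (0.057 and -0.20) lies inside the cloud.

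Levels of different genes were compared per length, as TPM, the count per base of summed exons scaled so that all genes of a library add up to 1000000. In Ctrl, CTTN stood at 286 TPM, VCP at 264, SQSTM1 at 244 and BAG3 at 213. By this length VCP (265 TPM) already stood above CTTN (231 TPM) in RT. In RT + shHDAC6 the order at the top was SQSTM1 (302 TPM), VCP (286 TPM) and CTTN (273 TPM). HDAC6 was the lowest of the 10 in all 3 libraries, at 23.1, 19.2 and 18.0 TPM.

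These levels rest on the length chosen, because HDAC6 has 14472 bases of annotated exons but a canonical transcript of 4118. With canonical lengths HDAC6 came to 49.6, 43.1 and 39.8 TPM, and PLAA, at 48.3 and 41.4 TPM, was below it in Ctrl and RT. CTTN, the substrate, was 12.4 times the level of HDAC6 in Ctrl and 15.2 times in RT + shHDAC6 by summed exons, and 7.56 and 9.27 times by canonical lengths. SQSTM1, VCP and CTTN were the 3 highest members in every library by each of the 3 lengths tried, but their order depended on the length. By the longest transcript it was SQSTM1, CTTN and VCP in all 3 libraries, without a change between them.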

How the data were processed

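RNA-seq libraries of T24 cells were grouped by their GEO titles, with 1 library per condition and 3 comparisons. Reads had been trimmed with cutadapt, aligned to GRCh38 with STAR (2.6.1a per the labels; the methods name another release) and assigned to GENCODE release 28 genes with featureCounts, and the authors deposited unnormalised read counts. The counting of multi-mapped reads is not given in the sources used here. Symbols, exon lengths and positions came from GENCODE release 44, which matched 57799 of 58381 identifiers. Scaling factors were computed over the 3 libraries with edgeR 4.0.16 (TMM, upper quartile) and DESeq2 1.42.0 (median of ratios) in R 4.3.3, and log2 ratios with Clopper-Pearson intervals in Python 3.11.15 with scipy 1.17.1, with a count of 0 set to 0.5. Intervals for differences between 2 members used the normal approximation. The scripts were tested on simulated data. The NOISeq probability of the study's methods rests on simulated noise when there is no replicate and was not used, and no test was run. Named genes are the members, the genes of each of the 6 pathway lists past 1.5-fold in RT against Ctrl or RT + shHDAC6 against RT, and the 5 nearest to HDAC6. Members, lists and limits were chosen with earlier results of these data known. Alternatives covered scaling, fold, count filter and gene length, and canonical lengths were added after the data had been seen.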

Additional observations from a re-analysis of the deposited data

How the results depend on the processing

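No paired analysis was possible because each condition has 1 library, so no replicate could be left out either, and the variation between cultures sets an unknown limit on every value. The number of members called lower in RT against Ctrl was 1, and it was 2 (NBR1 in addition) with library totals, with upper quartile factors, with totals without mitochondrially encoded genes and at the 25% limit, and 0 at 2-fold. For RT + shHDAC6 against Ctrl it was 0, and it was 2 with library totals, 1 with upper quartile factors, 2 with totals without mitochondrially encoded genes and 3 at the 25% limit. The number called higher was 0 in each comparison, and at the 25% limit it was 2 in RT against Ctrl, 1 in RT + shHDAC6 against RT and 2 in RT + shHDAC6 against Ctrl. A filter at 10 counts or at 1 count could change none of these numbers, because each member had at least 2170 counts in every library. With library totals, 5 of the 10 log2 ratios for RT against Ctrl changed sign (HDAC6, CTTN, SQSTM1, PLAA and STUB1, none of them called), and 1 did so for RT + shHDAC6 against RT (HSF1). Under that scaling, the Arp2/3 genes that fell in RT against Ctrl numbered 11 in place of 2, and the autophagy genes 7 in place of 2, while the share of all genes that fell was 19.8% in place of 10.1%. WIPF1, among these 11, passed the filter only through Ctrl. The 5 genes nearest to HDAC6 could not change with library totals, since a change of scaling shifts every gene alike and leaves the distances as they were. Exact conditional estimates of 4 differences between members equalled the approximate ones to 2 decimals.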
